A study of Mus musculus with 4 samples.

Results

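Oxidative phosphorylation is the step by which mitochondria turn the energy of nutrients into ATP. Complexes I to IV of the inner membrane pass electrons to oxygen and, except for complex II, pump protons, and complex V, the ATP synthase, uses the proton gradient to make ATP. Most subunits are encoded in the nucleus and imported, while a small set is encoded in mitochondrial DNA. Long-term haematopoietic stem cells (HSCs), the marrow cells that sustain blood formation, are known for a quiescent state with a strong reliance on glycolysis, and raise mitochondrial respiration when they become active and differentiate.

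The genes described here are the nuclear genes for these complexes, taken by symbol alone. They are all rows of the expression table with a single symbol that starts with Nduf, Uqcr, Atp5 or Cox4 to Cox8, or that reads Sdha, Sdhb, Sdhc, Sdhd, Cyc1 or Cycs. Pseudogene symbols ending in -ps were left out and no expression filter was applied. The rule found 85 genes among 23185 named genes, in a table of 25206 probe sets. By symbol they comprised 6 core subunits, 28 accessory subunits and 8 assembly factors of complex I, 4 subunits of complex II, 8 of complex III, 18 of complex IV, 12 of complex V, and cytochrome c. All 85 matched a gene of the RefSeq annotation (GRCm38.p6) with the same symbol. A further 13 annotated genes that follow the rule, among them Uqcrb, Cox7c and Atp5g1, had no row of their own and were not analysed here.

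The study asked how low doses of γ-irradiation act on HSCs in the long term. Lin- ckit+ Sca+ marrow cells received 0, 0.02, 0.1 or 0.5 Gy outside the body and were then transplanted into lethally irradiated mice. After 6 months, HSCs were sorted from the recipients' bone marrow by the phenotype Lin- ckit+ Sca+ Flk2- CD48- CD150+, and total RNA was hybridised to Affymetrix arrays. The 0 Gy cells were therefore also transplanted into irradiated hosts, and the gate as labelled holds no marker that tells donor cells from surviving host cells. Each dose was represented by 1 array. Strain, age and whether RNA was pooled over recipients are not stated in the labels. Differences between single doses have no replicate check and no test.

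Values are log2 intensities, so a difference of 1 is a doubling, and differences are given as the irradiated array minus 0 Gy unless other arrays are named. Levels of single genes were not compared with each other, because each has its own probes. They were set against the median over genes or a mean of 8 as a rough guide to brightness. Sums were taken within marker lists and the members. The 4 arrays had medians over all probe sets of 4.02, 4.07, 4.02 and 4.01 at 0, 0.02, 0.1 and 0.5 Gy. Of 10 listed genes that mark long-term HSCs, 8 were measured, and all 8 lay above the median gene level of 4.06 on every array. All 6 megakaryocyte markers did so as well, and all 8 measured erythroid markers at 0, 0.02 and 0.5 Gy. This level therefore does not tell HSCs from these lineages. Flt3, which encodes the Flk2 that the sort excludes, had log2 values of 4.46, 4.76, 5.44 and 4.76 in order of dose. Cd48, also excluded, had 4.13, 3.08, 4.11 and 4.13. All 3 measured T cell markers lay below 4.06 on every array.

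As a group, the oxidative phosphorylation genes were lower on the 0.02 Gy array than on the 0 Gy array by a small amount, and stood close to 0 Gy at both higher doses. At 0.02 Gy, 60 of the 85 genes were below 0 Gy, 17 above and 8 equal, with a median log2 difference of -0.12. Under cyclic loess 50 were below and 35 above, with a median of -0.04. At 0.1 Gy, 45 were below and 31 above, with a median of -0.01 that turned to 0.03 (31 below, 54 above) under quantile normalization and to 0.00 and 0.01 under median centring and cyclic loess. At 0.5 Gy, 33 were below and 44 above, with a median of 0.01. The median over all named genes was 0.00 at each dose. In genes with a mean of 8 or more the median at 0.02 Gy was -0.06. Complexes III and II had the lowest medians at 0.02 Gy, -0.25 and -0.20, with no filter applied. Over members whose mean reached the median gene level, complex IV had -0.20 as well. Single genes that stood 1.5-fold or more from 0 Gy were few, and those furthest below it were Cox7a1, Cox7b and Cox4i2 of complex IV and Ndufab1 of complex I.

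A difference of 1.5-fold or more was used to pick out single genes. At 0.02 Gy, 1 member was higher and 3 were lower by this measure, where 4.59% of all named genes were higher and 4.27% lower. At 0.1 Gy, 2 members were higher and 5 lower, where 3.99% of all genes were higher and 4.94% lower. At 0.5 Gy, 1 member was higher and 5 were lower, where 4.36% and 5.39% of all genes were. The members' shares were 1.18% to 2.35% for higher and 3.53% to 5.88% for lower genes, so the counts of lower members were near the background. At all 3 doses, 75 members stayed within 1.5-fold of 0 Gy. The remaining 10 were 11.8% of the members. Of all named genes 18.3% left these bounds at 1 dose or more, and of genes with a mean of 8 or more 13.4% did.

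**Figure D1:**
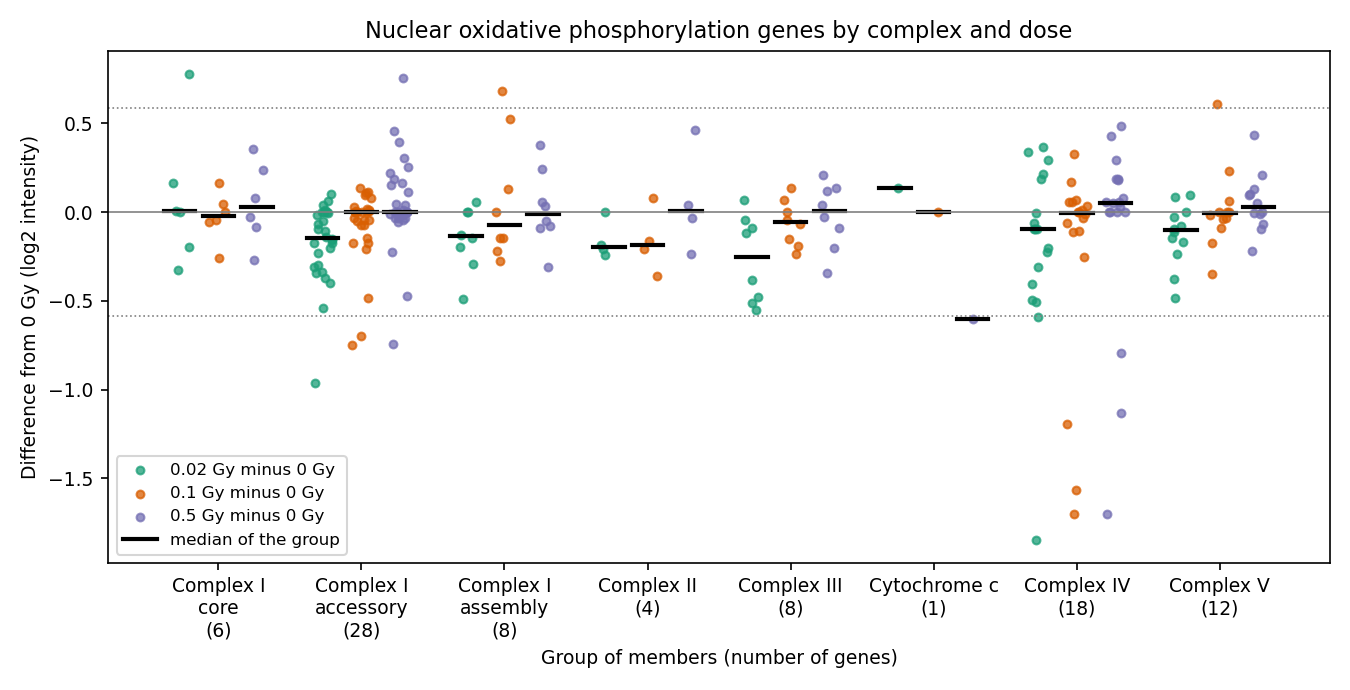
Log2 intensity difference from the 0 Gy array for each of the 85 genes, by class of the oxidative phosphorylation system, at 0.02, 0.1 and 0.5 Gy; each point is a gene, bars are class medians and the dotted lines mark 1.5-fold. Complexes II and III have medians of -0.20 and -0.25 at 0.02 Gy in the deposited values, the widest spread is in complex IV, and cyclic loess moves the medians at 0.02 Gy of complexes II, III, IV and V to -0.13, -0.16, -0.04 and 0.00.

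Cox7a1, Cox7b and Ndufab1 were the 3 members at least 1.5-fold lower than 0 Gy at all 3 doses, and no member was 1.5-fold higher at all 3. These comparisons share the 0 Gy array, so a high value on that array alone would appear in each. Over all named genes, 1.52% were 1.5-fold lower at all 3 doses. The 250 bases upstream of the annotated start of each are shown because these are the members past the threshold at every dose. They are from RefSeq (GRCm38.p6) and are written 5′ to 3′ along the strand of the gene, in lower case because no motif searched was found.
Cox7a1, chr7:30183921-30184170, plus strand: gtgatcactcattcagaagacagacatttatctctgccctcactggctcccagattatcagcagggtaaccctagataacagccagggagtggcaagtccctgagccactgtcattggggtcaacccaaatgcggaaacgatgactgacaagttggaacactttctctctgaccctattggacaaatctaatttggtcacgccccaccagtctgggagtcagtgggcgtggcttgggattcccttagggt
Cox7b, chrX:106015450-106015699, plus strand: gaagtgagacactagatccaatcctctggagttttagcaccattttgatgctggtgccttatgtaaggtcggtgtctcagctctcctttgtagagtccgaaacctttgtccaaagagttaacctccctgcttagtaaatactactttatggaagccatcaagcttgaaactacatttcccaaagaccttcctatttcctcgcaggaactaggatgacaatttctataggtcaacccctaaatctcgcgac
Ndufab1, chr7:122101849-122102098, minus strand: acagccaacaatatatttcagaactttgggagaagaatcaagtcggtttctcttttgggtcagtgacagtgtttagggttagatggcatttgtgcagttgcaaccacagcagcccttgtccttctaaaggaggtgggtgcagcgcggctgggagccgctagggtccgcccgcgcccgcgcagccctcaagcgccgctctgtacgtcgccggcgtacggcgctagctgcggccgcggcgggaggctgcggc

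Motifs were searched for 3 factors known to act on promoters of respiratory genes, NRF1 (GCGCATGCG), GABP (CCGGAAG) and YY1 (AAGATGG). Both strands were read, from 250 bases before to 50 bases after each annotated start. Of the 85 genes, 69 had a promoter in the table. NRF1 matches were found in 9 of them (13.04%), against 1.95% of 27025 genes. GABP matches were found in 17 (24.6%), against 9.93% of genes, and YY1 matches in 10 (14.5%), against 7.28%. In the 250 bases before the start alone, YY1 matches were found in 1 member (1.45%), against 5.18% of genes, so those of the members lay mostly in the 50 bases after it. In the same 250 bases NRF1 matches were found in 6 members (8.70%, against 1.64% of genes) and GABP matches in 12 (17.4%, against 7.83%). None of the NRF1 matches overlapped a GABP or YY1 match. A match is a run of letters and not a binding site, and the sequences above hold none of the 3.

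The 9 NRF1 matches are shown with the 10 bases before each, since this was the motif with the highest share in members relative to all genes. Capitals mark the match, which is 10 letters long where matches on both strands overlap. The lines run 5′ to 3′ along the strand of the gene (RefSeq, GRCm38.p6).
Atp5k, chr5:108434431-108434459, minus strand: tttcactgcgGCGCATGCGCctttctggc
Cox6a1, chr5:115349102-115349130, minus strand: caggaacgggGCGCATGCGCgctctcgct
Cycs, chr6:50566612-50566640, minus strand: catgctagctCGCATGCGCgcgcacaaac
Ndufa11, chr17:56717692-56717720, plus strand: cctgcactgcGCGCATGCGCgcacgcctt
Ndufa8, chr2:36049329-36049357, minus strand: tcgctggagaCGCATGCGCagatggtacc
Ndufaf4, chr4:24897960-24897988, plus strand: ccagatgtctGCGCATGCGCctgtgcgga
Ndufaf5, chr2:140170652-140170680, plus strand: agtcccgttgGCGCATGCGCctaatagaa
Uqcr11, chr10:80406808-80406836, minus strand: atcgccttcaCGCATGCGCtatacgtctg
Uqcrc1, chr9:108936668-108936696, plus strand: actccgctctGCGCATGCGCagcgcggct

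In 7 of the 9 promoters the match begins before the annotated start, at 5 bases in Uqcr11 and up to 162 bases in Cox6a1. In Ndufaf5 and Uqcrc1 it begins after the start. The 9 genes with the motif had median log2 differences, by dose, of -0.15, 0.06 and -0.08. The 60 members without it had -0.10, -0.02 and 0.04. For GABP the medians were -0.09, -0.02 and 0.03 in the 17 genes with the motif, against -0.13, 0.00 and 0.04 in the 52 without. For YY1 they were -0.19, -0.02 and -0.02 in 10 genes, against -0.09, 0.00 and 0.06 in 59. The lower values at 0.02 Gy were found with and without each motif.

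Complex IV, cytochrome c oxidase, passes electrons to oxygen. Several of its subunits have an isoform found in most tissues and another known from muscle, lung, testis or other restricted sites. Cox7a1, the form of subunit 7a known from heart and skeletal muscle, lies on chromosome 7 (30184171 to 30186030) and read 5.77, 3.93, 4.07 and 4.07 (log2, from 0 to 0.5 Gy). The 0 Gy array was high and the 3 irradiated arrays were close together, 3.59-fold, 3.25-fold and 3.25-fold lower, with values at about the median gene level of 4.06. Whether the probes were above background there is not known, and its mean over the 4 arrays passed that level through the 0 Gy value. Cox7a2, the form of most tissues, had 9.46, 9.15, 9.47 and 9.46, which set the 0.02 Gy array apart instead. Cox7b, a small structural subunit encoded on chromosome X (106015700 to 106022450), had 5.98, 5.39, 4.42 and 4.85. All 3 irradiated arrays were below 0 Gy, by 1.51-fold, 2.96-fold and 2.19-fold, and the 0.02 Gy value lay just past the threshold. The 0.1 Gy value was the nearest to the median gene level, and whether the probes were above background there is not known. Cox7b2, its testis form, had 1.70, 1.99, 2.03 and 1.99, below the median gene level on every array.

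Cox4i2, the lung form of subunit 4 and known to respond to low oxygen, had 5.72, 5.22, 4.53 and 4.93. Its differences were -0.50, -1.19 and -0.80, again with 0 Gy highest and 0.1 Gy lowest. Whether its probes were above background at 0.1 Gy is likewise not known. Cox4i1, the form of most tissues, had 11.10, 11.04, 11.09 and 11.15, a range of 0.11 in which the order of 0.02 Gy and 0 Gy turned under cyclic loess. Lower values of Cox4i2 were thus not mirrored in Cox4i1.

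Of the other pairs, Cox6a1 had 11.74, 11.54, 11.80 and 11.77, and Cox6a2, the muscle form, had 4.46, 4.83, 4.21 and 4.46. The 0.02 Gy array was lowest for Cox6a1 and highest for Cox6a2. Cox6b1 had 9.91, 9.90 and 10.43 at 0.02, 0.1 and 0.5 Gy, against 10 at 0 Gy, and Cox6b2, the testis form, had 8.28, 8.47, 8.24 and 8.76. Both were highest at 0.5 Gy, by 0.43 and 0.48 over 0 Gy. Cox8a, the general form of subunit 8, had 10.72, 10.62, 10.79 and 10.90. Cox8b, known from muscle, had 2.59, 2.80, 2.65 and 2.65, and Cox8c, known from testis, had 2.38, 2.28, 2.55 and 2.38, both below the median gene level throughout. All 6 general forms were below 0 Gy at 0.02 Gy in the deposited values (median -0.15), but under cyclic loess Cox4i1 and Cox8a were above 0 Gy and Cox6b1 stood at 0.00. The 7 restricted forms had a median of 0.19 at 0.02 Gy, over values from -1.84 to 0.37. That median includes Cox7b2, Cox8b and Cox8c, whose means fell below the median gene level. The others were split, with Cox7a1 and Cox4i2 at -1.84 and -0.50 and Cox6a2 and Cox6b2 at 0.37 and 0.19.

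The remaining 5 genes of complex IV were Cox5a, Cox5b, Cox6c, Cox7a2l and Ndufa4, the last now counted with complex IV in spite of its name. Cox5b had 5.45, 4.95, 5.48 and 5.52, and Ndufa4 had 10.70, 10.30, 10.70 and 10.75, each lowest at 0.02 Gy. Cox5a, a matrix-side subunit, had 9.61, 9.38, 9.49 and 9.78, and Cox7a2l, known for joining complexes III and IV, had 6.66, 7, 6.60 and 6.85. The 0.02 Gy array was the lowest for Cox5a and the highest for Cox7a2l. Cox6c, at 5.53, 5.52, 5.53 and 5.53, hardly differed between arrays. Over all 18 genes the medians were -0.09, 0.00 and 0.05 at 0.02, 0.1 and 0.5 Gy, with 13 genes lower and 5 higher at 0.02 Gy. Without Cox7b2, Cox8b and Cox8c, whose means fell below the median gene level, the median at 0.02 Gy was -0.20. Under cyclic loess, with all 18 genes, it was -0.04.

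**Figure D2:**
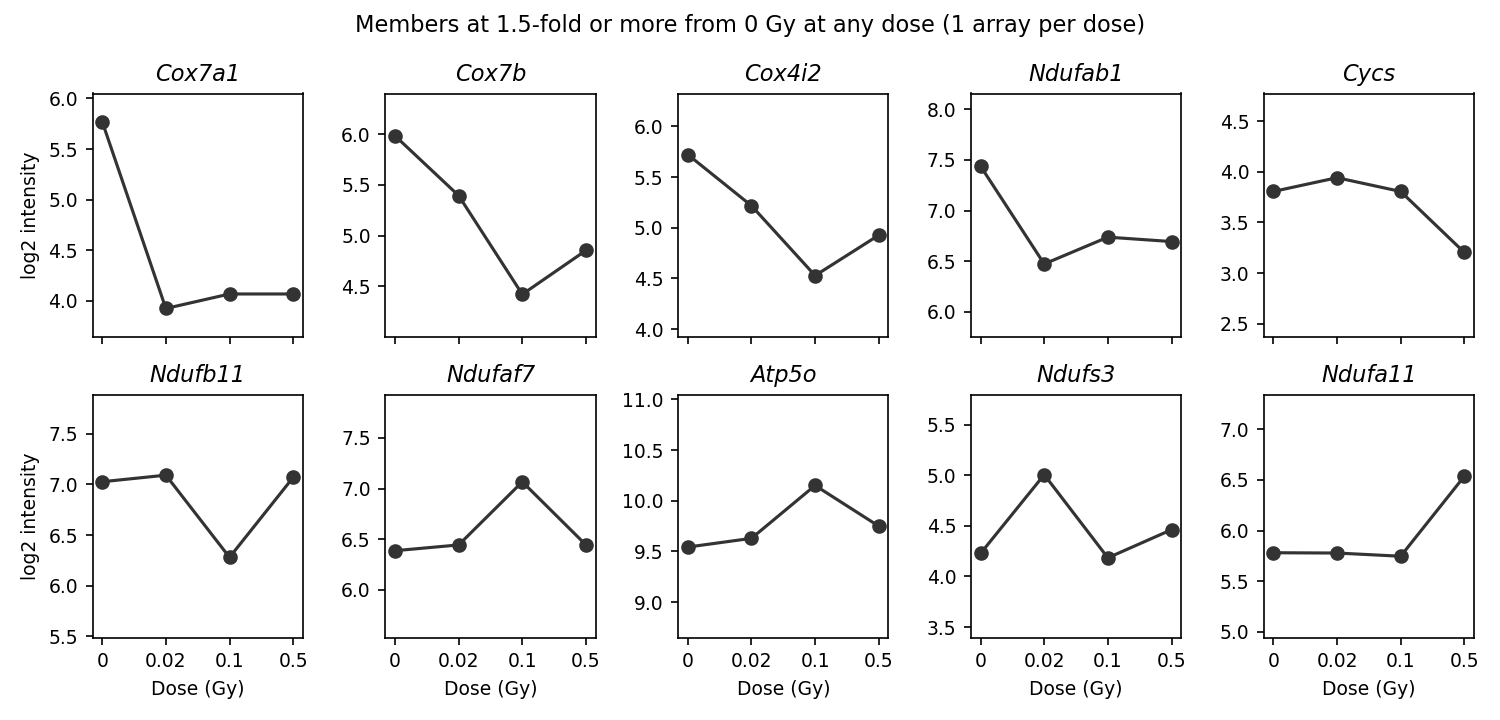
Log2 intensity on each of the 4 arrays, in order of dose, for the 10 genes that stood 1.5-fold or more from 0 Gy at any dose; each point is 1 array, doses are evenly spaced on the axis, and every panel spans the same number of log2 units. Cox7a1, Cox7b, Cox4i2 and Ndufab1 have their highest value at 0 Gy (5.77, 5.98, 5.72 and 7.44), while the other 6 stand apart on a single irradiated array.

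Complex I, NADH dehydrogenase, is the entry point of electrons from NADH. Among its 28 accessory subunits, Ndufab1, which also serves as the acyl carrier protein of mitochondrial fatty acid synthesis, had 7.44, 6.47, 6.74 and 6.69 at 0, 0.02, 0.1 and 0.5 Gy (chromosome 7, 122086815 to 122101848). It was 1.95-fold, 1.62-fold and 1.67-fold lower than 0 Gy, with the 3 irradiated arrays within 0.27 of each other. Ndufb11, a subunit of the membrane arm, had 7.03, 7.09, 6.28 and 7.07, with 0.1 Gy alone low by 1.68-fold. Ndufa11, another membrane arm subunit, had 5.78, 5.78, 5.75 and 6.54, with 0.5 Gy alone high by 1.69-fold.

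The other accessory subunits kept within 1.5-fold of 0 Gy. Ndufb3 had 7.20, 7.30, 7.31 and 7.66, and Ndufv3, which sits at the NADH-binding end, had 8.72, 8.77, 8.86 and 9.12, so both were higher at each higher dose. Ndufb9 had 10.07, 9.93, 9.93 and 9.85 and was lower at each higher dose. Ndufa9 had 8.69, 8.15, 8.70 and 8.69, and Ndufs6 had 10.32, 9.92, 10.28 and 10.28. In both the 0.02 Gy array alone was low and the other 3 nearly equal. Ndufb10 (9.53, 9.16, 9.53 and 9.53) and Ndufb7 (10.51, 10.17, 10.51 and 10.47) had the same shape, in which 3 arrays nearly tie. Ndufb5 had 9.70, 9.39, 9.22 and 9.64, and was low at 0.1 Gy as well. Ndufa7 had 8.98, 8.64, 8.81 and 8.51, below 0 Gy at all 3 doses. By contrast Ndufa10 (8.94, 8.84, 8.74 and 9.16), Ndufa12 (11.39, 11.33, 11.51 and 11.65), Ndufa6 (9.14, 8.90, 8.97 and 9.32) and Ndufb2 (9.68, 9.69, 9.61 and 9.99) were highest at 0.5 Gy, by 0.19 to 0.31 over 0 Gy. Over the 28 genes, 21 were lower and 4 higher than 0 Gy at 0.02 Gy (median -0.15), 13 lower and 12 higher at 0.1 Gy (0.00), and 11 lower and 13 higher at 0.5 Gy (0.00). The class was set by symbol and holds Ndufa4l2, a relative of Ndufa4 that is not counted as a complex I subunit. Its 4 values were identical, so it adds nothing to the counts of lower and higher genes, and without it the medians were -0.15, 0.00 and 0.00.

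The 6 core subunits measured, which carry the flavin and the iron-sulfur clusters or belong to the arm that holds them, had medians of 0.00, -0.02 and 0.03. The first was -0.03 after median centring and 0.04 after cyclic loess, and -0.10 over the members with a mean of 8 or more or with 4 different values. Ndufs3 had 4.228, 5.005, 4.184 and 4.462, with 0.02 Gy high by 1.71-fold at a level near the median gene. Ndufv2 had 9.03, 8.71, 8.78 and 9.11, lower at 0.02 and 0.1 Gy. Ndufs7, which carries the last iron-sulfur cluster before ubiquinone, had 9.46, 9.62, 9.62 and 9.81, all irradiated arrays being above 0 Gy. Ndufs1, the largest of the core subunits, had 6.95 at each of the 3 lower doses and 6.68 at 0.5 Gy. Ndufs8 (8.67, 8.47, 8.62 and 8.59) and Ndufv1, which binds NADH (8.68, 8.68, 8.72 and 8.65), stayed within 0.20 of 0 Gy.

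The 8 assembly factors, which help build complex I but are not part of it, had medians of -0.14, -0.07 and -0.01, the last of which was 0.02 to 0.03 after any rescaling. Ndufaf7, a methyltransferase needed early in assembly, had 6.39, 6.44, 7.07 and 6.44, with 0.1 Gy alone high by 1.60-fold. Ndufaf4 had 7.47, 6.98, 7.99 and 7.40 and was likewise highest at 0.1 Gy. Ndufaf6 had 5.80, 5.60, 5.58 and 6.17, and Ndufaf1 had 7.40, 7.11, 7.13 and 7.35, so both were lower at 0.02 and 0.1 Gy than at 0 and 0.5 Gy. Ndufaf5, a hydroxylase of Ndufs7, had 6.11, 6.11, 6.24 and 5.81. Ndufaf8 had 7.65, 7.52, 7.50 and 7.55, below 0 Gy at all 3 doses by 0.15 or less.

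Complex II, succinate dehydrogenase, feeds electrons from the citric acid cycle and is made wholly of nuclear-encoded subunits. Its flavoprotein Sdha had 9.27, 9.08, 9.06 and 9.24. Sdhb, the iron-sulfur subunit, had 9.32, 9.11, 9.15 and 9.08. Both were lower at 0.02 and 0.1 Gy than at 0 Gy, and Sdhb was so at 0.5 Gy too. Of the membrane anchors, Sdhc had 9.53, 9.29, 9.17 and 9.57, and Sdhd had 8.22, 8.22, 8.30 and 8.68. Sdhd alone stood above 0 Gy at 0.5 Gy by over 0.1, with a difference of 0.46. The medians of the 4 were -0.20, -0.19 and 0.00.

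Complex III passes electrons on to cytochrome c, and its members had the lowest class median at 0.02 Gy, -0.25, with 7 of 8 genes below 0 Gy. Cyc1, the cytochrome c1 that hands over the electrons, had 8.69, 8.14, 8.65 and 8.73, with 0.02 Gy alone low. Uqcrc1, a core protein of the matrix side, had 9.01, 8.49, 9.08 and 8.67, and Uqcrq, a small subunit, had 10.18, 9.70, 9.99 and 10.09. Each of these 3 was lowest at 0.02 Gy, by 0.55, 0.51 and 0.48 below 0 Gy. Uqcr10 had 10.39, 10.01, 10.16 and 10.19. The exception was Uqcr11, with 10.31, 10.38, 10.45 and 10.52, slightly higher at each dose. The other 3 genes, Uqcrc2, Uqcrfs1 (the Rieske iron-sulfur protein) and Uqcrh, stayed closer to 0 Gy, with -0.15 for Uqcrfs1 at 0.1 Gy as the widest difference. Cycs, the mobile carrier cytochrome c, which also triggers apoptosis when released, had 3.81, 3.94, 3.81 and 3.20. It was 1.52-fold lower at 0.5 Gy, but at a level below the median gene.

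Complex V had 9 of 12 genes lower, 2 higher and 1 equal at 0.02 Gy, with a median of -0.10 that became 0.00 under cyclic loess. At 0.1 and 0.5 Gy its medians were -0.01 and 0.03. Atp5o, the subunit that joins the peripheral stalk to the catalytic head, had 9.54, 9.63, 10.15 and 9.75, with 0.1 Gy high by 1.52-fold. Atp5pb, the stalk subunit b, had 9.10, 8.62, 8.76 and 8.88, all irradiated arrays being below 0 Gy. Atp5c1, the gamma subunit of the rotor, had 5.31, 5.41, 5.54 and 5.74, higher at each dose.

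The catalytic head subunits varied little. Atp5a1 had 10.93, 10.76, 10.84 and 10.92, and Atp5b had 10.78, 10.69, 10.78 and 10.91. Atp5g3, a source of the membrane ring, had 10.25, 9.88, 10.21 and 10.18, and Atp5k had 11.65, 11.42, 11.65 and 11.56. In each of these 4 genes the 0.02 Gy array was the lowest. Atp5e, the epsilon subunit, had 11.85, 11.77, 11.81 and 11.95, and the small membrane subunit Atp5md had 10.11, 10, 10.09 and 10.21. Atp5mpl, another, had 10.68, 10.53, 10.50 and 10.73. All 3 were highest at 0.5 Gy, by 0.10, 0.10 and 0.05 over 0 Gy. Atp5j was listed at 7.29 on all 4 arrays, and was with Ndufa4l2 (3.35) 1 of 2 members with identical values throughout, where 6.78% of all named genes had the same. At least 1 tie among the 4 arrays occurred in 23 members (27.1%), against 57.4% of all named genes.

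**Figure D3:**
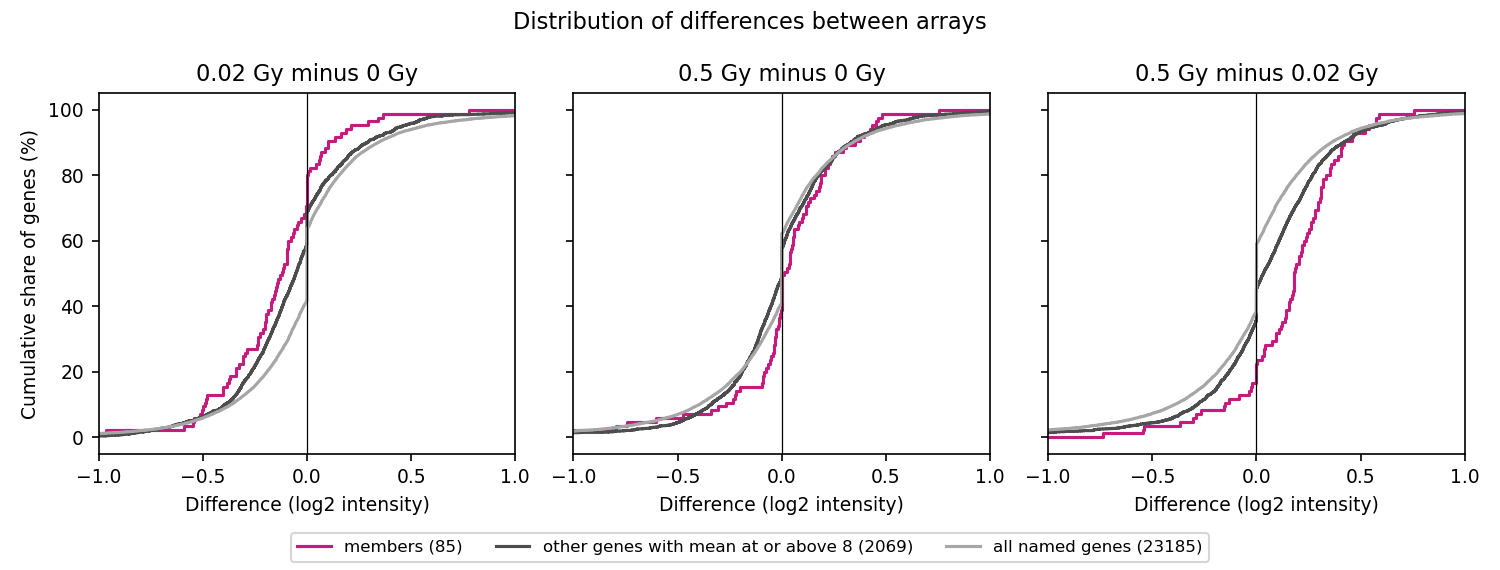
Cumulative share of genes (%) against the log2 intensity difference for 3 pairs of arrays, for the 85 members, the 2069 other genes with a mean log2 value of 8 or more, and all 23185 named genes. The members lie to the left for 0.02 Gy minus 0 Gy (median -0.12) and to the right for 0.5 Gy minus 0.02 Gy (median 0.18), near 0 for 0.5 Gy minus 0 Gy; cyclic loess reduces the first 2 medians to -0.04 and 0.09.

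The 0.02 Gy array stood below the other irradiated arrays too in the deposited values. Against 0.02 Gy, 0.5 Gy was higher in 66 members, lower in 14 and equal in 5, with a median log2 difference of 0.18, and 0.1 Gy was higher in 56 and lower in 22, with a median of 0.08. Between 0.5 and 0.1 Gy, 53 members were higher and 26 lower at 0.5 Gy, with a median of 0.06. Under cyclic loess the medians, in the same order, were 0.09, 0.02 and 0.02. These pairs leave out the 0 Gy array, though the first of them share the 0.02 Gy array with each other and with the comparison above. All 8 members of complex III were higher at 0.5 Gy than at 0.02 Gy, with a median of 0.18, and 11 of 12 members of complex V, with a median of 0.19 and Atp5j equal. The 0.02 Gy array alone held the lowest value in 43 members (50.6%, against 22.6% of all named genes). The 0.5 Gy array alone held the highest in 35 (41.2%, against 19.9%). Genes tied at the extreme are not counted, and ties occurred in 57.4% of all named genes, against 27.1% of members. Of genes with a mean of 8 or more, 35.0% were lowest at 0.02 Gy alone and 27.2% highest at 0.5 Gy alone.

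Members at 1.5-fold or more were also counted between irradiated arrays. For 0.5 Gy over 0.02 Gy 2 were higher and 1 lower, where 4.17% and 5.74% of all named genes were. For 0.1 Gy over 0.02 Gy 2 were higher and 5 lower, against 4.12% and 5.5% of genes. For 0.5 Gy over 0.1 Gy 3 were higher and 3 lower, against 4.11% and 4.41%. In either direction the members' shares were 3.53%, 8.24% and 7.06%, in this order, against 9.90%, 9.62% and 8.52% of all named genes. The last 2 were near the background. The shift between 0.5 and 0.02 Gy was made mostly of differences under 1.5-fold.

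The members are mostly bright on the arrays, with gene means from 1.93 to 11.84 and a median of 8.92. The mean of 80 members reached the median gene level, and that of Cox7b2, Cox8b, Cox8c, Cycs and Ndufa4l2 did not. Bright genes as a whole were lower at 0.02 Gy in the deposited values. Among the 2069 other genes with a mean of 8 or more, 59.1% were below 0 Gy at 0.02 Gy, with a median of -0.05. Of the 56 members at this level, 46 were below, 7 above and 3 equal (82.1% below), with a median of -0.16. For 0.5 Gy over 0.02 Gy the same 56 members had 51 higher and 4 lower, with a median of 0.22, against a median of 0.03 in the other bright genes. The 0.02 Gy array alone was lowest in 36 of the 56 (64.3%) and alone highest in 0, where it was lowest in 35.0% of genes at this level.

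Rescaling the arrays changed the size of this shift. The members' median at 0.02 Gy was -0.13 after quantile normalization and -0.15 after median centring, and -0.04 after cyclic loess, which evens out differences that depend on brightness. Under cyclic loess 50 members were below and 35 above 0 Gy, and the median of genes at a mean of 8 or more turned to 0.02. For 0.5 Gy minus 0.02 Gy the members' medians were 0.23, 0.25 and 0.09 under the same 3 scalings, against 0.07, 0.11 and -0.02 in genes at a mean of 8 or more. No scaling moved the median of all named genes by over 0.1 for any pair.

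**Figure D4:**
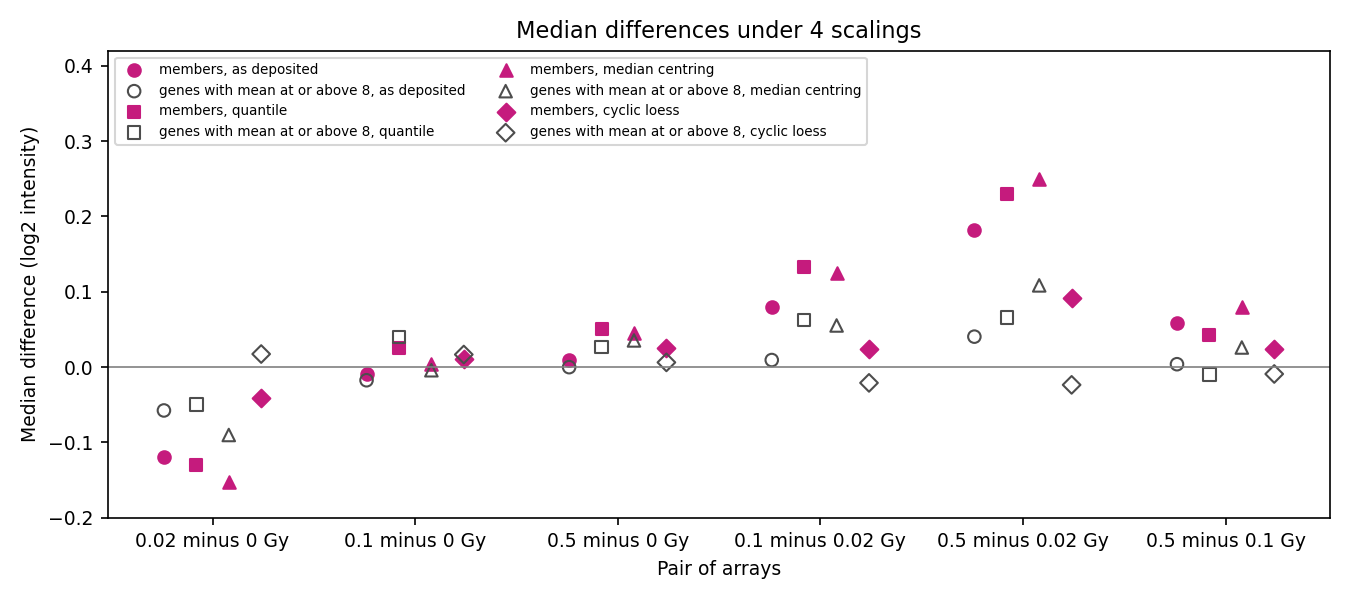
Median log2 intensity difference of the 85 members and of the genes with a mean log2 value of 8 or more, for pairs of arrays under 4 scalings. The members' median for 0.02 Gy minus 0 Gy is -0.12 in the deposited values and -0.04 under cyclic loess, where the median of bright genes turns from -0.06 to 0.02.

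Other large sets of housekeeping genes had like values. The median log2 differences of the 76 mitochondrial ribosomal protein genes, in order of dose, were -0.18, 0.00 and 0.01, with 53 lower and 18 higher at 0.02 Gy. The 60 cytosolic ribosomal protein genes had -0.19, 0.04 and 0.00, with 41 lower and 15 higher. The 37 proteasome subunit genes had -0.09, 0.00 and 0.00, with 28 lower and 7 higher. For 0.5 Gy minus 0.02 Gy the medians were 0.18 in the members, 0.20 in mitochondrial and 0.15 in cytosolic ribosomal genes, and 0.10 in proteasome genes. No test of a difference between these sets and the members was made, so lower values at 0.02 Gy are not described as particular to respiratory genes.

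Markers of dividing cells, like the members, had their lowest summed intensity at 0.02 Gy. At 0.5 Gy the members' sum was above 0 Gy and that of these markers below it. Of 9 markers of dividing cells measured, among them Plk1, Cdc20, Ttk and Top2a, 5 were 1.5-fold or more lower at 0.02 Gy, against 4.27% of all named genes. At 0.1 and 0.5 Gy 0 were so. Their medians by dose were -0.60, -0.08 and -0.12. Their summed intensity on the linear scale was 4316, 2969, 4206 and 4233 at 0, 0.02, 0.1 and 0.5 Gy, and that of the 85 members 63984, 57123, 63019 and 66290. Of 8 measured long-term HSC markers 4 were 1.5-fold or more higher at 0.02 Gy, Procr and Slamf1 among them, against 4.59% of all named genes. The summed intensities of the 8 were 2712, 3837, 2797 and 2737. Erythroid markers, 8 measured of 10, summed to 3213, 2440, 3530 and 4439, a sum lowest at 0.02 Gy. The genes were split, with Klf1, Gata1, Car1, Car2 and Hbb-b1 below 0 Gy at 0.02 Gy and Tfrc, Epor and Slc4a1 above. B and plasma cell markers, 7 of 8, summed to 1533, 2899, 846 and 656, and monocyte and macrophage markers, 5 of 6, to 169, 534, 154 and 123, both highest at 0.02 Gy. Markers that were higher at 0.02 Gy than on any other array included Cd79a, a B cell receptor component, 2.81 log2 units above 0 Gy, Ly6c2, a monocyte marker, with 6.28, 8.18, 6.83 and 4.72, and Cd68, with 6.10, 7.78, 4.02 and 6.18. Csf1r (3.11) and Adgre1 (3.22), defining monocyte and macrophage markers, were low and identical on all 4 arrays, and Ms4a1 of B cells lay at 2.23 to 2.32. Granulocyte markers, all 10 measured, summed to 327, 687, 1202 and 618, and megakaryocyte markers, 6 of 6, to 3158, 2827, 2166 and 2632. The megakaryocyte genes were split at 0.02 Gy, with Itga2b and Vwf above 0 Gy and Pf4, Gp1bb, Gp9 and Ppbp below. The part of any of these in the members' differences was not tested, and in sorted cells fewer cells of a type and less RNA per cell cannot be told apart.

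Patterns over the 3 doses were mixed among the members. There were 27 lower at 0.02 Gy and higher at 0.5 Gy than 0 Gy, 29 lower at both, 14 higher at both, and 2 higher at 0.02 Gy and lower at 0.5 Gy. Of the members 23 (27.1%) were below 0 Gy at all 3 doses, where 19.9% of all named genes and 31.0% of genes with a mean of 8 or more were. Above 0 Gy at all 3 doses were 9 (10.6%), where 18.6% and 14.9% were. Among the 62 members with 4 different values, 5 followed the order of dose (8.06%), against 8.93% of the 9868 named genes with 4 different values. As a share of all genes, ties included, this was 5.88% of the 85 members and 3.8% of the 23185 named genes. They were Ndufb3, Atp5c1, Ndufv3 and Uqcr11 upward and Ndufb9 downward.

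No member passed a test. In a limma fit of the 3 irradiated arrays against the lone 0 Gy array, 0 of 85 members and 213 of 23185 genes (0.919%) were called at an adjusted p under 0.05. At an unadjusted p under 0.05 there were 5 members (5.88%), against 2730 genes (11.8%). These were Cox7b2, higher, and Cox7a1, Ndufab1, Sdhb and Ndufaf8, lower in irradiated cells. Cox7a1 averaged 1.75 below 0 Gy on the log2 scale over the 3 irradiated arrays (coefficient -1.75, SE 0.09), with limma's adjusted p at 0.0583. The 3 irradiated values lay near the median gene level, 2 of them tied, and all 3 were set against the same single 0 Gy value. Ndufab1 had a coefficient of -0.80 (SE 0.15), against that same array, and limma's adjusted p was 0.242. Of the 213 called genes, 154 had exactly equal values on the 3 irradiated arrays, as had 2664 of all named genes.

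In a limma fit of a straight line in dose, 0 members and 0 genes (0%) were called. At an unadjusted p under 0.05 there were 12 members (14.1%), 10 upward and 2 downward, against 3165 genes (13.7%). The lowest adjusted p among members in this limma fit was 0.216. Sdhd had a slope of 0.94 log2 units per Gy (SE 0.04), which rests mainly on its value at 0.5 Gy. Both fits had 2 residual degrees of freedom.

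Genes that act on the system were taken from 2 further lists. Of 39 other assembly factors 38 were measured, and their median log2 differences by dose were -0.04, -0.01 and 0.00. By 1.5-fold or more, 0, 1 and 1 were higher and 2, 1 and 4 lower at 0.02, 0.1 and 0.5 Gy. Of all named genes, 4.59%, 3.99% and 4.36% were higher and 4.27%, 4.94% and 5.39% lower. Lyrm7, which helps insert the Rieske protein into complex III, had 4.682, 3.821, 4.003 and 3.071, with every irradiated array below the median gene level. Uqcc2, also of complex III assembly, had 10.06, 9.20, 9.70 and 9.86, lowest at 0.02 Gy like most complex III subunits. Coa7, of complex IV assembly, had 5.29, 5.29, 6.85 and 5.29, and Atpaf1, which helps assemble the catalytic head of complex V, had 8.34, 7.86, 7.86 and 7.29.

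The 12 regulators of mitochondrial genes had medians of 0.11, 0.00 and -0.09. Tfb2m, a transcription factor of mitochondrial DNA, had 2.90, 6.98, 3.96 and 4.99, the widest differences of the list, with 0 Gy lowest. Its values at 0 and 0.1 Gy lay below the median gene level of 4.06, and all its differences rest on that single 0 Gy value. Gabpa, the DNA-binding subunit of GABP, had 8.56, 8.73, 7.96 and 7.87. Tfam, which packages and transcribes mitochondrial DNA, had 6.55, 6.24, 5.81 and 6.59. None of the 13 subunits encoded in mitochondrial DNA had a row, and they were not analysed here.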

How the data were processed

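RNA of the sorted cells was turned into biotinylated cDNA with an Affymetrix whole-transcript kit, per the labels' protocols. The authors deposited log2 intensities, 1 for each Entrez gene probe set. Base 2 is an inference, since values run between 1.22 and 13.02. Partek is named without a role in the submitters' processing notes. How background was corrected and arrays normalized, and on which build, is not given in the sources used here. Values were used as deposited, and the 4 arrays, 1 per dose, were grouped by the labelled dose. Arrays have no read depth, so their number limits the precision.

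The members, gene lists, motifs and rules were chosen with earlier results of these data known. Log2 differences between arrays were taken per gene. Linear models were fitted over all 23185 named genes with limma 3.58.1 (R 4.3.3) and moderated by eBayes, with p-values adjusted by Benjamini-Hochberg at 0.05, with the lone 0 Gy array assumed to vary like the others. The fits were also run on simulated data, which held no tied values and so do not cover genes with ties. The median gene level, 4.06, is the median of gene means over the 4 arrays.

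Named with all values by rule were members 1.5-fold or more from 0 Gy, complex II, Cyc1, Cycs, the extremes of each class, Cox isoforms and members ordered with dose, 40 in all, and up to 4 genes per further list. Further members printed with their values, Csf1r, Adgre1 and Ms4a1, and the erythroid and megakaryocyte markers named without values, were added after their values were seen. As alternatives, arrays were rescaled (cyclic loess, quantile normalization, median centring), dim genes removed, thresholds moved, each array set against the remaining 3, an intensity trend added and each array left out.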

Additional observations from a re-analysis of the deposited data

How the results depend on the processing

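With 1 array per dose a median was taken to move when it shifted by 0.1 log2 units or more, and a count when it changed by over 1.5 times. Of 186 alternative values for the main results 153 held by this measure and 33 moved. No median of the members shifted by 0.1 or more, but the median at 0.02 Gy was -0.04 under cyclic loess, against -0.12 as deposited, and that at 0.1 Gy, -0.01 as deposited, turned to 0.03 under quantile normalization. Under cyclic loess 35 members were above 0 Gy at 0.02 Gy, 23 were below 0.02 Gy at 0.5 Gy and 10 were ordered with dose. Quantile normalization put 54 above 0 Gy at 0.1 Gy and ordered 8 with dose. Median centring left 14 below 0.02 Gy at 0.1 Gy. For the count of members 1.5-fold higher, quantile normalization and median centring gave 5 and 4 for 0.1 over 0.02 Gy and 4 and 6 for 0.5 over 0.02 Gy. For 0.5 over 0.1 Gy, median centring left 1 lower. The cause was not tested. By construction, a threshold of 1.2-fold gave larger counts, 4 higher and 23 lower at 0.02 Gy, 4 and 9 at 0.1 Gy, 11 and 9 at 0.5 Gy, and 2-fold gave smaller ones, 0 and 1, 0 and 3, and 0 and 2. With each array set against the mean of the remaining 3, 3 were lower at 0.1 Gy and 1 at 0.5 Gy. The 213 genes called by limma for irradiated cells became 0 with the filter, quantile normalization, median centring or cyclic loess, 0 to 0 without each irradiated array, and 320 with an intensity trend. Members called were 0 in each of these. Loess for the ordered members, scalings of the counts above and below, and filters at a mean of 8 and for 4 different values were added after seeing the data, as was leaving out Ndufa4l2.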
